A study of Mus musculus with 6 samples.

Results

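The genes described here carry out water and urea handling in the collecting duct, and 8 of them were followed in kidney RNA of newborn mice. They were the vasopressin receptor gene Avpr2, the aquaporin genes Aqp2, Aqp3 and Aqp4, the urea transporter gene Slc14a2, and the principal cell transcription factor genes Gata3, Elf5 and Tfcp2l1. They were chosen by function, with earlier results of these data known, as the genes whose RefSeq accession is the target of a probe on the array. All 8 were found, through 12 of the 39429 probes that were not controls, and all 8 are among the 21203 genes tested. Avpr2, Aqp4, Slc14a2 and Tfcp2l1 had 2 probes each, and the other 4 genes had 1. Every one of the 12 probes was well above background on all 6 arrays, so the filter on dim probes removed none of them.

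The collecting duct is the last stretch of the renal tubule, where the final concentration of urine is set. Vasopressin binds its V2 receptor, encoded by Avpr2, on the basolateral side of principal cells, and the cAMP that follows moves aquaporin-2 to the apical membrane and raises Aqp2 transcription. Water leaves the cell through aquaporin-3 and aquaporin-4 on the basolateral side, and urea crosses the inner medullary duct through the UT-A transporters made from Slc14a2. The newborn kidney still forms nephrons and concentrates urine poorly.

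Total RNA of kidney tissue was measured on single-colour Agilent arrays, 3 labelled USP10 KO (KO) and 3 labelled USP10 WT (WT). The tissue came from neonates about 6 hours after birth, and both groups are labelled male. The labels do not say that each array is another animal, so the tests measure the spread between these samples, which may be technical. Usp10 encodes a deubiquitinating enzyme. The sources used here do not give the deleted part of the gene, the cells that lost it or the strain, and name no other allele or treatment for either group. The one comparison is that of the genotypes. Values are log2 signals relative to the 75th percentile of each array, where 0 is that percentile, and differences are KO minus WT on the same scale. In bulk kidney RNA, fewer collecting duct cells and less of a transcript in each cell cannot be told apart.

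Several facts about the arrays touch every value below. Usp10 itself read 3.64, 3.37 and 3.56 on the arrays labelled KO, against 3.01, 3.12 and 2.95 on those labelled WT, a difference of 0.50 ± 0.16 (SE, limma adjusted p = 0.414) that runs against the labels. A probe outside the deleted part would check nothing, and throughout KO and WT mean the arrays labelled so. WT replicate 2 had no Y-linked signal of Ddx3y, Eif2s3y or Uty above background, and had signal from both Xist probes. WT replicate 1 had signal from a single Xist probe and also had that Y-linked signal. Avpr2 lies on chromosome X, and the part of sex in its values was not tested. Scan 1 covered KO replicates 1 and 2 together with WT replicates 2 and 3, and scan 2 covered KO replicate 3 with WT replicate 1. KO replicate 2 had 39.1% of its signal in its brightest 1% of spots, and the other arrays had at most 31.9%. The 75th percentile that sets 0 was 473, 306 and 327 on KO replicates 1, 2 and 3. It was 494, 489 and 582 on WT replicates 1, 2 and 3. How far this scaling sets the order of the arrays was not tested. Between 64.4% and 73.9% of the spots were well above background, none was saturated, and 3 arrays per group limit the precision of every difference.

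None of the 8 genes passed the test of KO against WT. Of the 21203 genes, 17 (0.0802%) passed an adjusted p of 0.05 in limma. With scan as a block 58 genes (0.274%) passed, again none of the 8. An unadjusted p under 0.05 was then reached by 17.7% of all genes and by none of the 8 on their brightest probes. Without the block the lowest adjusted p among the 8 on their brightest probes was 0.512, for Aqp2. None of the 8 had an unadjusted p under 0.05 on its brightest probe, a level that 10.4% of all genes reached. The dimmer Avpr2 probe had a limma unadjusted p of 0.0496 (adjusted p = 0.489 over all probes). On the scaled values the groups overlapped for each of the 8, while they did not overlap for 18.2% of all genes. All the same, 7 of the 8 differences were above 0, as were 53.7% over all genes, and their median was 0.37, beside 0.031 over all genes. No member reached the threshold under any of the alternative settings.

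The receptor gene was the 1 member below 0, as were 46.3% of all genes. On the brighter of its probes, Avpr2 stood at 0.66 and 0.47 on KO replicates 2 and 3, against 0.89, 0.36 and 0.94 on WT replicates 1, 2 and 3. The spot on KO replicate 1 was flagged as an outlier by the scanner software and left out, so this fit rests on 2 arrays labelled KO. On this scale the lowest of the 5 values was that of WT replicate 2, and both KO values lay between the lowest and the highest WT values. Before scaling, KO replicates 2 and 3 read 483 and 453, below WT replicates 1, 2 and 3 at 915, 630 and 1119. The flagged spot of KO replicate 1 read 830, above WT replicate 2. The difference was -0.17 ± 0.24 (SE, limma adjusted p = 0.804), or -0.084 with the flagged spot kept. It was 0.0058 within scan 1 and -0.42 within scan 2.

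The dimmer Avpr2 probe gave a larger difference of the same sign. Its values were -3.34, -1.85 and -3.59 on KO replicates 1, 2 and 3, against -2.40, -1.57 and -1.47 on WT replicates 1, 2 and 3. On this scale the groups overlapped through KO replicate 2, which lay above WT replicate 1. Over all probes, 8.01% were lower on KO arrays without overlap. The unscaled signals were 46.6, 85.1 and 27.1 on KO replicates 1, 2 and 3. WT replicates 1, 2 and 3 read 93.7, 165.3 and 209.3, so every KO array then lay below every WT array. The share of all probes that did so before scaling was not computed. The difference was -1.11 ± 0.48 (SE), it did not pass over all 25809 probes, of which 0.0736% did (limma adjusted p = 0.489), and it was -1.07 within scan 1 and -1.19 within scan 2. Both probes target the same accession, and the cause of the unequal sizes was not tested. Averaging both probes with the flagged spot kept gave -0.60 (limma adjusted p = 0.483).

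Aqp2 encodes the water channel that vasopressin moves to the apical membrane. It stood at -0.060, 0.98 and 0.66 on KO replicates 1, 2 and 3, against 0.063, 0.026 and -0.16 on WT replicates 1, 2 and 3. On this scale KO replicates 2 and 3 lay above all WT arrays, and KO replicate 1 lay among them. Before scaling, the signals were 453.6, 601.4 and 515.7 on KO replicates 1, 2 and 3. They were 516.2, 498.2 and 520.1 on WT replicates 1, 2 and 3, so KO replicate 3 then lay below WT replicates 1 and 3. The means were 0.53 ± 0.53 for KO and -0.024 ± 0.12 for WT (SD, n = 3 each), so the spread of the group labelled KO was close to the difference in size. That difference was 0.55 ± 0.27 (SE), with a 95% interval from -0.089 to 1.19, a ratio of 1.46 (limma adjusted p = 0.512). It was 0.53 within scan 1 and 0.60 within scan 2, but 0.32 without KO replicate 2 and 0.84 without KO replicate 1.

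Aqp3 encodes a basolateral channel that carries water and glycerol. Its values were 2.63, 3.65 and 3.40 on KO replicates 1, 2 and 3, against 3.07, 2.84 and 2.77 on WT replicates 1, 2 and 3. The order was that of Aqp2, with KO replicates 2 and 3 above every WT array, but here KO replicate 1 was the lowest of all 6. Before scaling, the signals were 2935, 3843 and 3455 on KO replicates 1, 2 and 3. WT replicates 1, 2 and 3 read 4136, 3515 and 3975, so no KO array then lay above all of them. The difference was 0.34 ± 0.28 (SE, limma adjusted p = 0.654), with a 95% interval from -0.31 to 0.98. It was 0.12 without KO replicate 2 and 0.63 without KO replicate 1.

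The upstream sequences of Aqp2 and Aqp3 are shown because the signals of both genes followed the same arrays and because Aqp2 is the classic cAMP-induced target of the pathway. They are the 250 bases before the RefSeq start of each gene in build GRCm38.p6, at chr15:99578806-99579055 on the plus strand for Aqp2 and chr4:41098184-41098433 on the minus strand for Aqp3, written along the gene from 5′ to 3′. Capitals mark each match to TGACG, the core of the cAMP response element, and to GATA, the core that GATA factors bind, on either strand (CGTCA and TATC on the other).
Aqp2: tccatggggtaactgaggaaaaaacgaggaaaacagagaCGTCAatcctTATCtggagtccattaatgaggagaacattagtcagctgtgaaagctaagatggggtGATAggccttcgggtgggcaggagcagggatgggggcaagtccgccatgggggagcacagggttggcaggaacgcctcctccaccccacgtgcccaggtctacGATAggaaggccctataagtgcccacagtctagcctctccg
Aqp3: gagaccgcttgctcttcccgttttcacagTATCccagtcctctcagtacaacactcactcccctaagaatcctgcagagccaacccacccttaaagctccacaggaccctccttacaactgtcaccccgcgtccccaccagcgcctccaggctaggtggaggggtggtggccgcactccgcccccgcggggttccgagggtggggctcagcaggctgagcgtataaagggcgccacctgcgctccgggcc

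The Aqp2 window held 1 TGACG match, 211 to 207 bases before the start, and 3 GATA matches, of which the nearest lay 41 to 38 bases before it. The Aqp3 window held no TGACG match and 1 GATA match, 221 to 218 bases before the start. Of 32851 RefSeq windows of the same length, 17.8% held TGACG and 53.6% held GATA on either strand. The full palindrome TGACGTCA, which contains TGACG, was in 1.55% of all windows and in none of the 7 windows found for 6 members. GGAA, the core of sites for ETS factors such as ELF5, was in 93.4% of all windows and in the windows of all 6 members. These matches describe letters only.

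Aqp4 encodes the other basolateral water channel of principal cells. On its brighter probe it stood at 1.06, 2.48 and 1.98 on KO replicates 1, 2 and 3, against 1.70, 1.44 and 1.60 on WT replicates 1, 2 and 3. The WT arrays lay close together, with KO replicate 1 below and KO replicates 2 and 3 above all of them. Before scaling, the signals were 987, 1703 and 1286 on KO replicates 1, 2 and 3. WT replicates 1, 2 and 3 read 1608, 1325 and 1768, so no KO array then lay above all of them. The difference was 0.26 ± 0.34 (SE, limma adjusted p = 0.783). Without KO replicate 2 it was -0.061, so the direction rests on that array.

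The dimmer Aqp4 probe ordered the arrays labelled KO the same way, with -1.15, 0.61 and 0.34 on KO replicates 1, 2 and 3, against -0.42, -0.48 and -1.06 on WT replicates 1, 2 and 3. Its difference was 0.58 ± 0.45 (SE, limma adjusted p = 0.639 over all probes). On the scaled values, the arrays labelled KO thus enclosed the WT values for both aquaporins of the basolateral side, on each probe.

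Slc14a2, which encodes the vasopressin-regulated urea transporters of the inner medulla, had the largest difference and the widest spread of the 8 on the brightest probes. On the dimmer probes the difference of Avpr2 (-1.11) was larger in size. The probe for NM_207651 gave 0.25, 2.57 and 1.98 on KO replicates 1, 2 and 3, against 0.64, 0.92 and -0.19 on WT replicates 1, 2 and 3. KO replicates 2 and 3 were above every WT array, and KO replicate 1 lay between WT replicates 3 and 1. This order also held before scaling, at 561, 1819 and 1285 on KO replicates 1, 2 and 3. WT replicates 1, 2 and 3 then read 771, 929 and 509. The means were 1.60 ± 1.21 for KO and 0.46 ± 0.58 for WT (SD, n = 3 each). The difference was 1.14 ± 0.59 (SE), a ratio of 2.21, with a 95% interval from -0.23 to 2.52 (limma adjusted p = 0.520, exact permutation p = 0.3, two-sided, where 0.1 is the smallest possible). It was 1.04 within scan 1 and 1.33 within scan 2, but 1.79 against WT replicate 3 alone, 1.82 without KO replicate 1 and 0.65 without KO replicate 2.

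The second Slc14a2 probe, for NM_030683, targets another transcript accession of the gene. It read -2.47, -1.05 and -1.71 on KO replicates 1, 2 and 3, against -2.22, -1.90 and -2.38 on WT replicates 1, 2 and 3. On this scale KO replicates 2 and 3 were again the highest, and KO replicate 1 was the lowest. Unlike on the brighter probe, this order did not hold before scaling. KO replicate 3 (99.7) then lay below WT replicates 1, 2 and 3 (105.8, 131.3 and 111.5), while KO replicate 2 (147.6) stayed the highest. The difference was 0.42 ± 0.35 (SE, limma adjusted p = 0.661 over all probes), smaller than that on the brighter probe, and whether the transcripts differ was not tested.

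**Figure D1:**
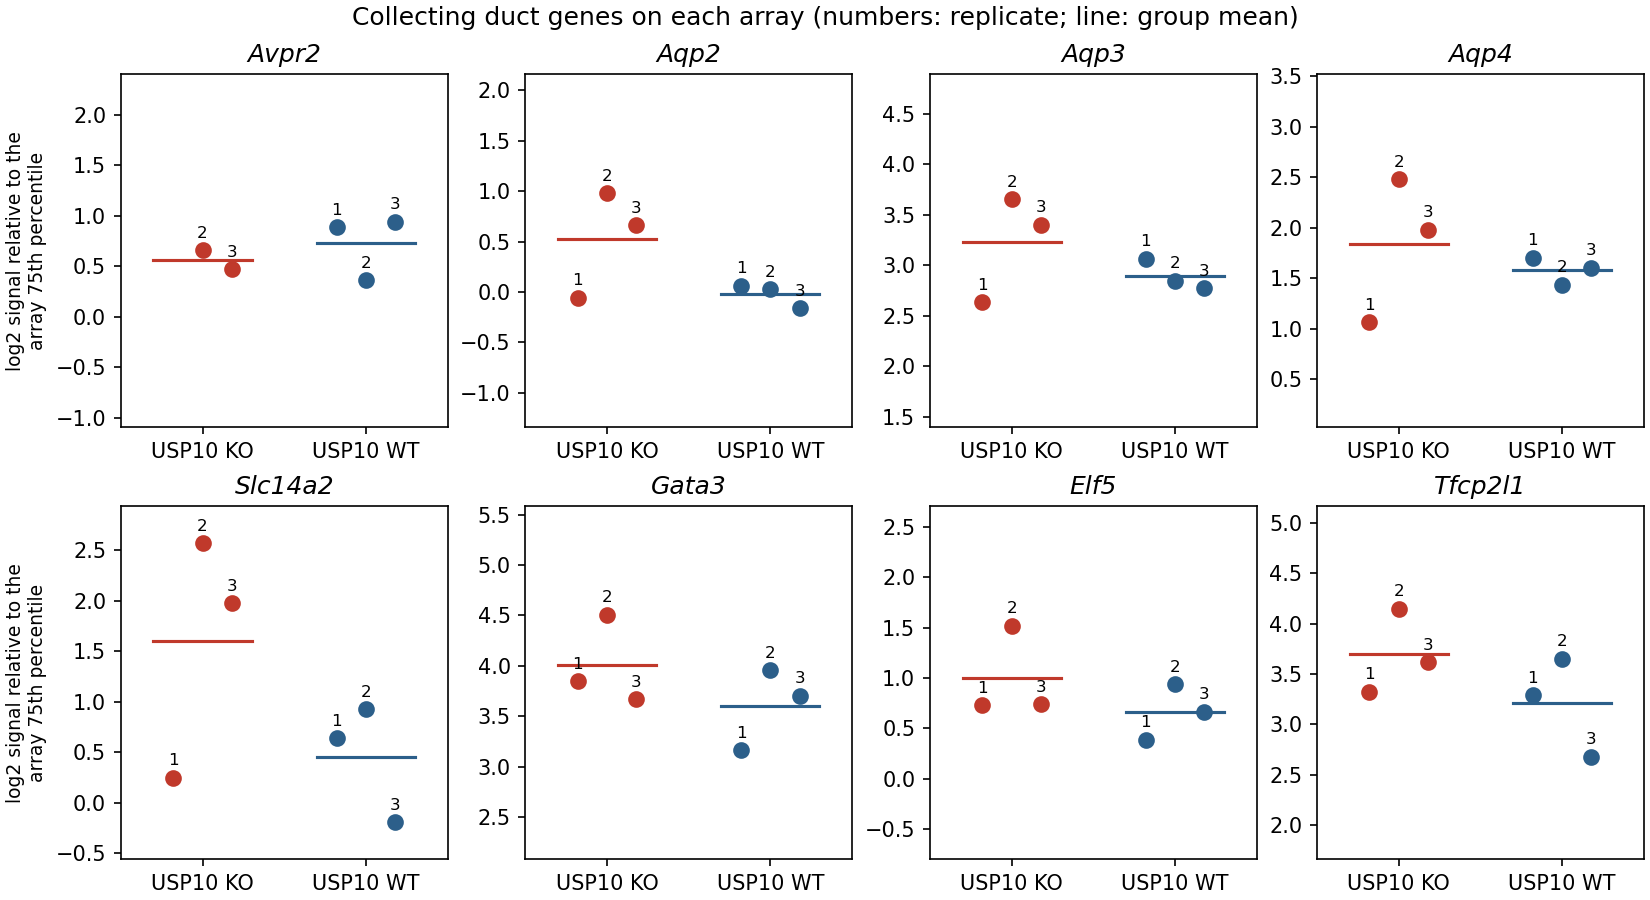
Log2 signal of each of the 8 genes relative to the 75th percentile of its array (vertical axis, with the same span in every panel), with arrays labelled KO on the left and WT on the right of each panel. Points are single arrays numbered by replicate, lines are group means, the flagged Avpr2 spot of KO replicate 1 is left out, and for the 3 aquaporins and Slc14a2 KO replicates 2 and 3 lie above every WT array while KO replicate 1 does not.

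The transcription factor genes overlapped between the groups in another way. Gata3, a zinc-finger factor required for the ureteric bud and kept on in the collecting duct, stood at 3.85, 4.51 and 3.67 on KO replicates 1, 2 and 3, against 3.16, 3.96 and 3.70 on WT replicates 1, 2 and 3. On this scale KO replicate 2 alone lay above all WT arrays, and WT replicate 1 alone lay below all KO arrays. The unscaled signals were 6804, 6947 and 4152 on KO replicates 1, 2 and 3. WT replicates 1, 2 and 3 read 4423, 7593 and 7576, so KO replicate 2 then lay below WT replicates 2 and 3. KO replicate 3 was then the lowest array. The difference was 0.40 ± 0.29 (SE, limma adjusted p = 0.613), or 0.15 without KO replicate 2.

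Elf5, an ETS factor of principal cells, was ordered almost as Gata3 was. Its values were 0.73, 1.52 and 0.74 on KO replicates 1, 2 and 3, against 0.39, 0.94 and 0.66 on WT replicates 1, 2 and 3. In unscaled signal KO replicate 2 read 876, below WT replicates 2 and 3 at 937 and 922. On the scaled values KO replicates 1 and 3 lay between WT replicates 3 and 2, so KO replicate 2 carried most of the difference. That difference was 0.33 ± 0.27 (SE, limma adjusted p = 0.649), and it was 0.070 without KO replicate 2.

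Tfcp2l1, a CP2 family factor needed for the mature mixture of principal and intercalated cells in mice, stood at 3.32, 4.15 and 3.62 on KO replicates 1, 2 and 3, against 3.29, 3.65 and 2.68 on WT replicates 1, 2 and 3. The low value of WT replicate 3 and the high value of KO replicate 2 set the ends of the range on this scale. Before scaling, WT replicate 2 (6150) lay above KO replicate 2 (5418), and WT replicate 3 (3732) stayed the lowest. The difference was 0.49 ± 0.31 (SE, limma adjusted p = 0.572), and 1.01 against WT replicate 3 alone and 0.22 without it. The dimmer probe of Tfcp2l1 gave 0.45 ± 0.33 (SE). It read 1.56, 2.36 and 1.34 on KO replicates 1, 2 and 3, against 0.81, 1.74 and 1.37 on WT replicates 1, 2 and 3. There WT replicate 1 was lowest in place of WT replicate 3. In unscaled signal KO replicate 3 (828) lay below WT replicate 1 (867) and was the lowest.

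**Figure D2:**
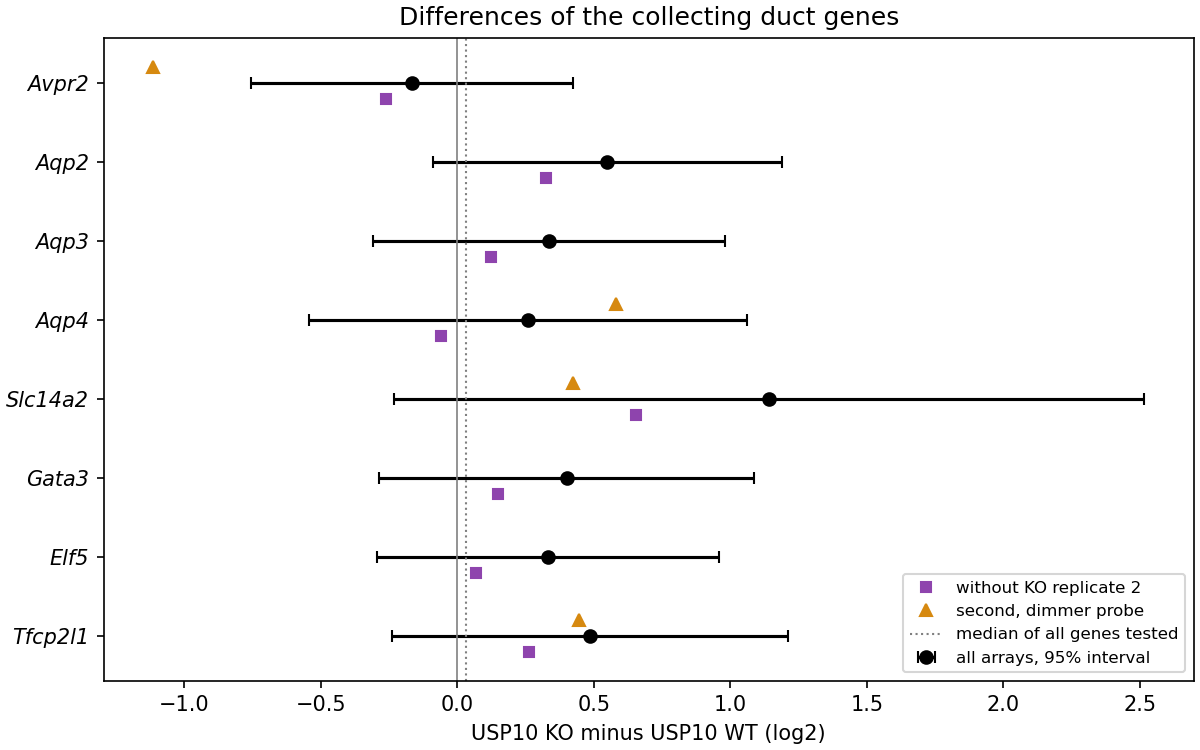
KO minus WT difference of each gene (horizontal axis, log2) with its 95% interval from limma over all arrays, the value without KO replicate 2 (squares), the value of the dimmer probe where there are 2 (triangles, no interval drawn) and the median of all genes tested (dotted line, 0.031). All 8 intervals include 0, and the value without KO replicate 2 is nearer 0, or past it for Aqp4, for every gene but Avpr2.

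On the scaled values, the 8 genes set KO replicate 2 apart. It was then the highest of the 6 arrays for 7 of the 8 genes, all but Avpr2, and for 28.5% of all genes. In unscaled signals of the brightest probes it was the highest for Aqp2 and Slc14a2. A WT array then read higher for Aqp3, Aqp4, Gata3, Elf5 and Tfcp2l1, and the unscaled share over all genes was not computed. As the median over the 8 genes of the value minus the WT mean, KO replicates 1, 2 and 3 stood at -0.036, 0.90 and 0.40, against 0.10, 0.16 and -0.060 for WT replicates 1, 2 and 3. KO replicate 1, whose median lacks the flagged Avpr2 spot, was thus at the level of the WT arrays. The median SD over the 8 genes was 0.49 among arrays labelled KO and 0.30 among those labelled WT, beside 0.25 and 0.25 over all genes.

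Markers of other kidney compartments also set that array apart. All 10 measured proximal tubule markers were well above background on all 6 arrays, so none was absent, but KO replicate 2 was the lowest array for 8 of them, beside 18.5% of all genes. Of the 10 differences, 7 were below 0, beside 46.3% over all genes, and 3 were above it, the highest that of Aqp1 (0.68). The sodium-glucose transporter gene Slc5a2 stood at 0.80, -3.23 and 0.031 on KO replicates 1, 2 and 3, against 0.66, 0.54 and 0.89 on WT replicates 1, 2 and 3. The inositol oxygenase gene Miox likewise gave 3.81, 0.13 and 3.01 on KO replicates 1, 2 and 3, against 3.78, 3.86 and 3.97 on the WT arrays. Neither gene passed the test (limma adjusted p = 0.563 and 0.529).

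The summed linear signal of the 10 proximal tubule markers, in units of the 75th percentile, ranged from 69.1 to 103.2 on the arrays labelled KO and from 90.8 to 97.2 on those labelled WT. The lowest value was that of KO replicate 2. The sum of the 8 collecting duct genes ranged from 36.5 to 71.0 on the arrays labelled KO, highest on KO replicate 2, and from 34.6 to 44.1 on those labelled WT. The 36.5, on KO replicate 1, lacks Avpr2, whose spot was flagged there. The 6 podocyte markers summed to between 18.5 and 36.7 on arrays labelled KO and between 23.6 and 35.01 on those labelled WT, again lowest on KO replicate 2. The part of these markers in the differences of the 8 genes was not tested.

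Medians of the marker lists relative to the WT mean gave the same picture for KO replicate 2. It stood at -0.73 for proximal tubule, -0.99 for podocyte, -0.98 for nephron progenitor and -0.75 for stroma markers, and at 0.51 for the 12 intercalated cell markers. The 9 loop of Henle and distal tubule markers stood at -0.25, 0.43 and -0.30 on KO replicates 1, 2 and 3. Urothelial markers had 8 of 8 differences above 0, beside 53.7% over all genes, and a median of 0.52. They stood at 0.34, 0.92 and 0.47 on KO replicates 1, 2 and 3, against -0.033, -0.32 and 0.34 on WT replicates 1, 2 and 3. WT replicate 3 was thus level with KO replicate 1. On the proximal tubule, podocyte, nephron progenitor and stroma lists, KO replicate 1 stood at 0.11, 0.29, -0.30 and 0.086. KO replicate 3 stood at -0.19, -0.050, -0.52 and -0.086 on those lists. For nephron progenitor markers WT replicates 1, 2 and 3 stood at 0.12, -0.20 and 0.18, so every array labelled KO lay below them. Of the 6 differences of that list, 5 were below 0, beside 46.3% over all genes, and 1, that of Eya1, was above it (0.69). Of the 5 macrophage markers measured, 4 differed below 0 and 1, C1qb, above it (0.022), with list medians of -0.37, -1.09 and -0.69 for KO replicates 1, 2 and 3. On the arrays labelled KO, list medians ranged from -0.27 to -0.063 for endothelial markers and from -0.23 to 0.70 for the 3 measured erythroid markers. They ranged from 0.31 to 0.48 for the 5 ureteric tip markers. Single genes went both ways, with 4 endothelial differences below 0 and 2 above, and 4 ureteric tip differences above 0 and 1 below. No gene of these marker lists passed the test over all genes. Nearest was the macrophage gene Cx3cr1, a chemokine receptor, with -3.53, -3.75 and -3.51 on KO replicates 1, 2 and 3, against -1.71, -1.999 and -2.34 on WT replicates 1, 2 and 3 (-1.58 ± 0.21, SE, limma adjusted p = 0.0608, or 0.036 with scan as a block).

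**Figure D3:**
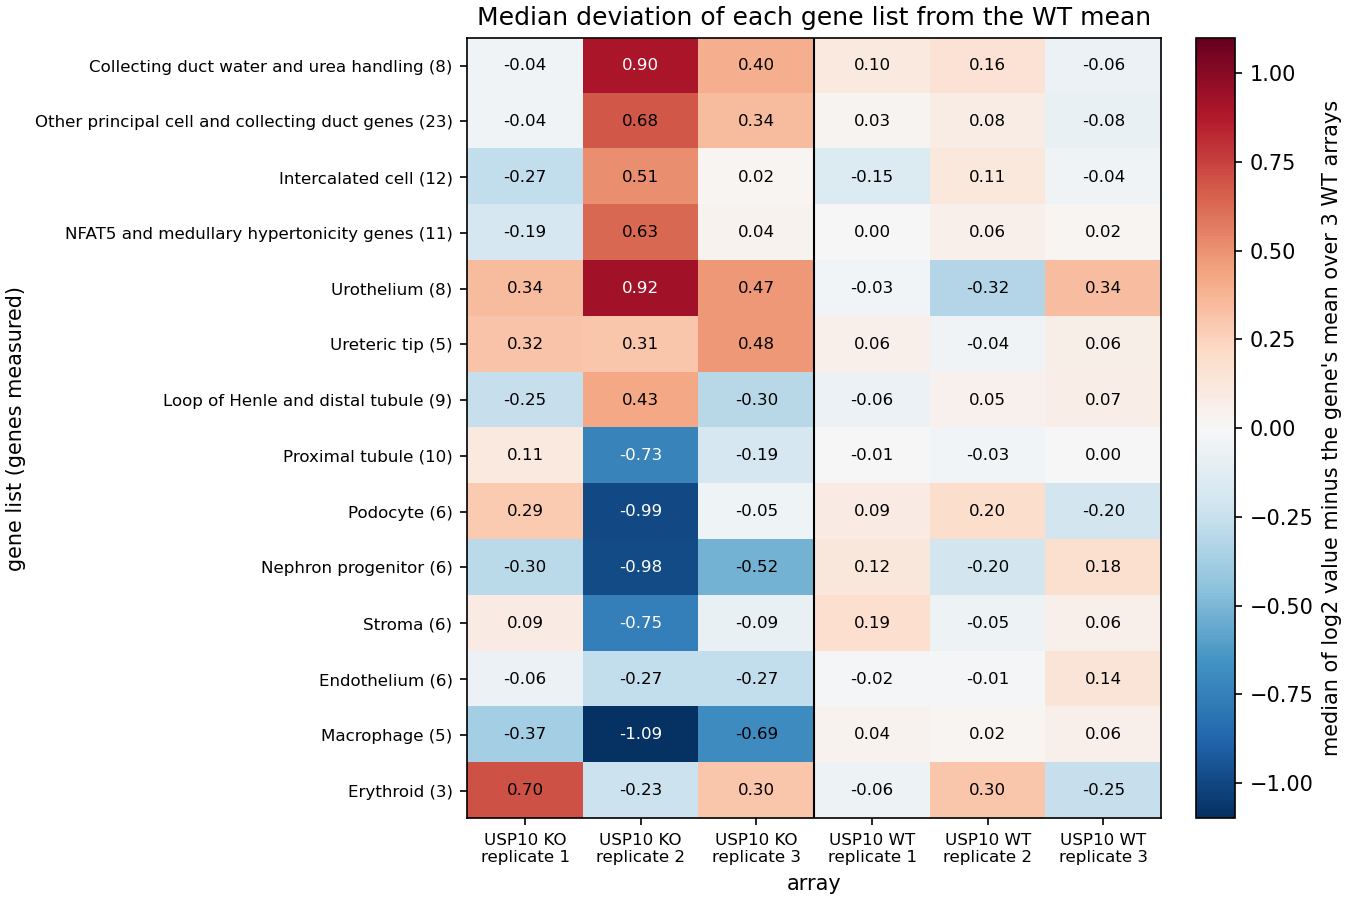
Median over each gene list (rows, number of measured genes in brackets) of the log2 value minus the gene's mean over the 3 WT arrays, for each array (columns, KO left of the line and WT right of it), with red above and blue below the WT mean. KO replicate 2 is the highest array for the 8 collecting duct genes (0.90) and the lowest for the podocyte (-0.99), nephron progenitor (-0.98) and proximal tubule (-0.73) lists.

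Other genes of principal cells and the collecting duct followed the 8. Of 25 listed genes 23 were measured, while the mineralocorticoid receptor gene Nr3c2 and the cortisol-inactivating enzyme gene Hsd11b2 did not pass the filter on dim probes. None of the 23 passed over all genes. Of their differences 22 were above 0, beside 53.7% over all genes, and their median was 0.33. KO replicate 2 was the highest array for 19 of the 23, beside 28.5% of all genes. Scnn1a, the alpha subunit of the epithelial sodium channel, stood at -0.021, 1.78 and 1.39 on KO replicates 1, 2 and 3, against 0.46, 0.18 and -0.27 on WT replicates 1, 2 and 3. As for Slc14a2, KO replicates 2 and 3 lay above every WT array and KO replicate 1 among them. Sgk1, the kinase that holds that channel at the membrane, was the one with the smallest p and did not overlap between the groups (0.77 ± 0.25, SE, limma adjusted p = 0.414). Of the 23, 2 genes were higher on KO arrays without overlap, beside 10.2% of all genes. The claudin genes Cldn8 and Cldn3 differed by 0.64 ± 0.29 and 0.49 ± 0.25 (SE).

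The vasopressin and cAMP signalling genes stood nearer to 0. Of 35 listed genes 34 were measured, none passed, 22 differences were above 0, and the median was 0.13. An unadjusted p under 0.05 was reached by 4 genes higher and 1 lower, beside 6.23% and 4.16% of all genes. The adenylyl cyclase gene Adcy4 differed by -0.49 ± 0.17, the CREB family gene Atf1 by 0.59 ± 0.22, the kinase anchor gene Akap9 by 0.46 ± 0.18 and the calcium-sensing receptor gene Casr by 0.63 ± 0.25 (SE), with limma adjusted p between 0.436 and 0.471. Groups did not overlap for 7 genes higher and 1 lower, while over all genes 10.2% were higher and 7.98% lower without overlap.

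Genes that move aquaporin-2 between vesicles and the membrane, or mark it for removal, had a median of 0.079 over 25 measured, with 0 past the threshold, where none had an unadjusted p under 0.05. The ubiquitin ligase genes Nedd4 and Nedd4l differed in opposite directions, by -0.48 ± 0.21 and 0.42 ± 0.20 (SE). Myo5b, a motor of recycling vesicles, differed by 0.47 ± 0.21 and the syntaxin gene Stx3 by 0.57 ± 0.28 (SE).

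Among the other aquaporin and urea transporter genes 7 of 9 were measured and none passed, with a median of 0.12. Aqp6, which encodes an intracellular channel of intercalated cells, stood at 0.73, 1.49 and 1.07 on KO replicates 1, 2 and 3, against 0.36, 0.50 and 0.15 on WT replicates 1, 2 and 3, with no overlap (0.76 ± 0.23, SE, limma adjusted p = 0.399). Aqp1, the channel of proximal tubule and thin descending limb, differed by 0.68 ± 0.32 (SE) and was high on KO replicate 2 (4.16), unlike most proximal tubule markers. Aqp8 differed by -0.65 ± 0.30 (SE). Slc14a1, the urea transporter gene of red cells and vasa recta, differed by -0.70 ± 0.30 (SE), and 2 of the 3 arrays labelled KO measured it well above background.

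Regulators of the collecting duct and ureteric lineage had 29 of 30 genes measured, none past the threshold, and a median of 0.050. Ret, the receptor of ureteric tips, had the smallest p of this list. It stood at 0.36, 0.83 and 0.85 on KO replicates 1, 2 and 3, against -0.012, -0.11 and -0.65 on WT replicates 1, 2 and 3 (0.94 ± 0.24, SE, limma adjusted p = 0.328). The ETS factor gene Ehf differed by 0.97 ± 0.35, and the Wnt ligand genes Wnt7b and Wnt9b by 0.53 ± 0.20 and -0.72 ± 0.26 (SE).

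NFAT5 and the genes that hypertonicity induces in the medulla had a median of 0.062 over 11 measured, with none past the threshold. The osmolyte transporter genes differed in sign. Slc6a6 differed by 0.62 ± 0.24 and Slc5a3 by 0.59 ± 0.36 (SE), and Slc6a12 by -0.83 ± 0.34 (SE). Prostaglandin, endothelin and nitric oxide genes of the medulla had a median of 0.072 over 16 measured, again with none past the threshold. The prostaglandin receptor gene Ptger2 differed by -0.89 ± 0.31, the prostaglandin transporter gene Slco2a1 by 0.56 ± 0.24, the synthase gene Ptges2 by -0.36 ± 0.17 and the endothelin gene Edn1 by 0.78 ± 0.43 (SE).

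**Figure D4:**
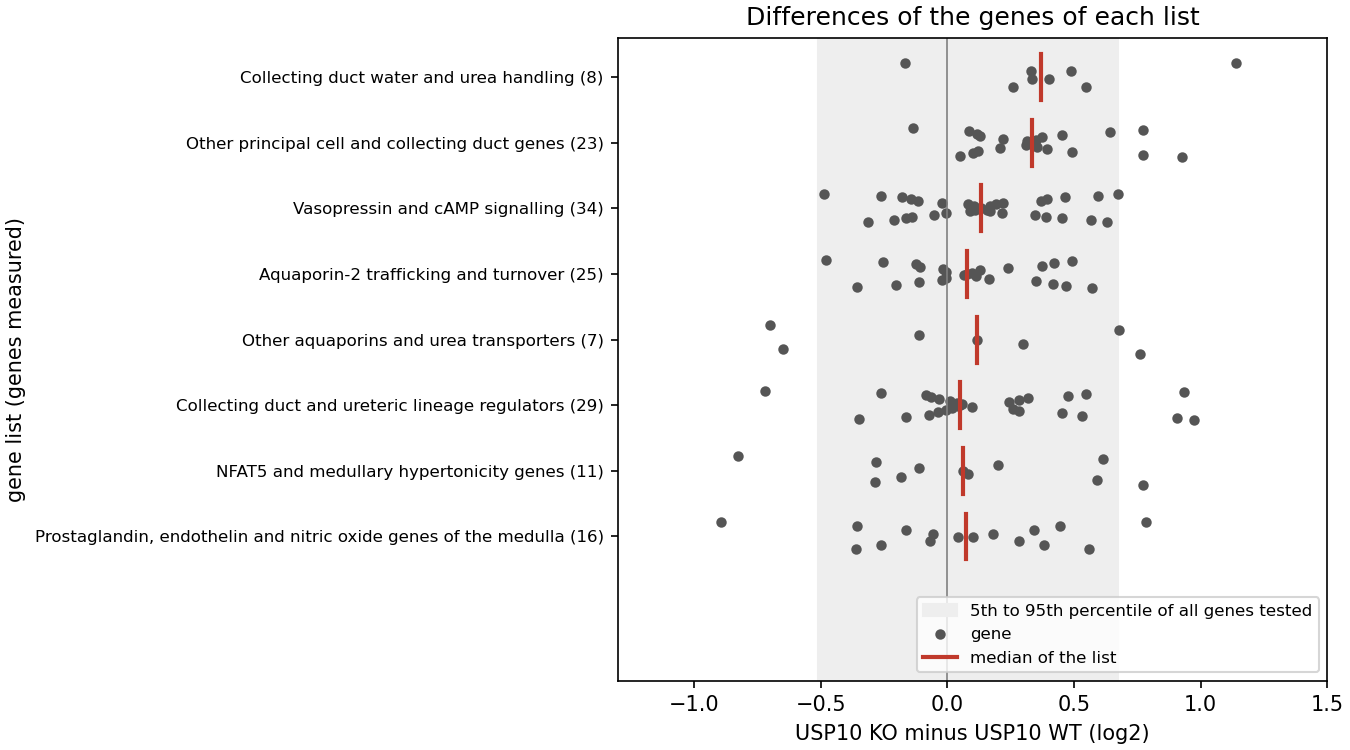
KO minus WT difference (horizontal axis, log2) of every measured gene of the 8 lists (points, number in brackets), with each list's median in red and the range from the 5th to the 95th percentile of all genes tested (-0.51 to 0.68) in grey. The collecting duct genes and the other principal cell genes have medians of 0.37 and 0.33, and those of the other 6 lists lie between 0.050 and 0.13.

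The genes most like Aqp2 over the 6 arrays were Rhcg, Rnu1b6 and Rmrp, with Pearson correlations of 0.998, 0.997 and 0.996 among 14483 named genes compared. These are the highest of many values over only 6 arrays, so they are given as a description. Rhcg, an ammonia transporter of the collecting duct, stood at 2.76, 4.18 and 3.65 on KO replicates 1, 2 and 3, against 2.90, 2.79 and 2.59 on WT replicates 1, 2 and 3. Rnu1b6 is a U1 small nuclear RNA and Rmrp the RNA of RNase MRP, and neither is a collecting duct marker. Rnu1b6 gave -1.61, 0.45 and -0.14 on KO replicates 1, 2 and 3, against -1.55, -1.46 and -1.99 on WT replicates 1, 2 and 3.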

How the data were processed

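Spot intensity was deposited on a linear scale, with background already subtracted and no scaling between arrays. The file headers name Agilent Feature Extraction 11.0.1.1, while the submitters' processing notes name version 9.1. Control spots (1377 of 44397) and outlier-flagged spots were left out. Values were put on the log2 scale, centred on the 75th percentile of each array and averaged over the spots of a probe. Target accessions named 27228 of 39429 probes (69.1%) through a RefSeq table of GRCm38.p6, used for names only because the headers name mm9. Upstream sequences come from the RefSeq promoter table. A probe entered if it was well above background, by the deposited flags (other columns, 0 or 1), on all arrays of 1 group, and the brightest probe stood for its gene. The fit used lmFit and eBayes of limma 3.58.1 (R 4.3.3), two-sided, with Benjamini-Hochberg adjustment over 21203 genes and a threshold of 0.05, and was tested on simulated data.

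The members and lists were chosen with earlier results of these data known. Named were all members and, per list, up to 4 genes with the smallest unadjusted p (up to 2 per marker list), plus the 3 genes most correlated with Aqp2. Slc5a2 was chosen after its values were seen.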

Additional observations from a re-analysis of the deposited data

How the results depend on the processing

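The alternatives were quantile or median scaling, normexp background correction (offset 50) with either the 75th percentile or quantile scaling, no filter or a stricter one, the mean of probes, every probe, an intensity trend with robust variance, a scan block, each scan alone (scan 2 with no test), leaving out each array, and KO against WT replicate 3 alone. Keeping flagged spots, alone or with the mean of probes, and taking the dimmer probes were chosen after seeing the data. Of 188 member differences so obtained, 66 equal the reported value, mostly because the setting changes only the test or the gene has 1 probe. Of the other 122, 120 kept their direction, and the exceptions were Aqp4 without KO replicate 2 (-0.061) and Avpr2 within scan 1 (0.0058). None passed the threshold, with limma adjusted p from 0.178 to 0.997, and none of the genes of the 7 other lists passed in the settings tested. The members' median, 0.37 over all arrays, was 0.14 without KO replicate 2 and 0.64 without KO replicate 1, the ends of its range when 1 array was left out, and between 0.28 and 0.41 under the other alternatives. Over all genes 17 passed, against 58 with the scan block, 45 with the trend, 1 with the stricter filter, 1 with the mean of probes, 0 with no filter and 0 with normexp and quantile scaling. Against WT replicate 3 alone the count was also 0, but the WT arm then has no spread of its own and is assumed to vary like KO, so that setting gives only differences. With the mean of probes Avpr2 was -1.29, beyond both its probes, because KO replicate 1 then holds the dimmer probe alone, and -0.60 with the flagged spot kept. That count was 30 without KO replicate 3 and 0 without any other single array. Same-numbered arrays deviated from their group means with correlations of -0.40, 0.48 and -0.60. The highest correlation of any KO array with a WT array was 0.89, for KO replicate 3 and WT replicate 1, the arrays of scan 2. Deviations from a mean of 3 arrays constrain one another, so these values cannot tell whether the numbers pair the arrays. With the replicate block the members' median stayed at 0.37 and 0 members passed (lowest adjusted p 0.669), as did 0 genes in all. With 3 arrays per group the interval of Aqp2 still allows a difference of 1.19.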
